A study of Mus musculus with 18 samples.

Results

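The mitochondrial ribosomal proteins were taken as the protein-coding genes whose symbol begins with Mrpl or Mrps followed by a digit. This rule found 78 genes among the 48023 of the count table, and it used no measured value. By function, 51 of them belong to the large subunit, 26 to the small subunit, and 1, Mrps36, lies outside the mitochondrial ribosome. Of the 78 genes, 76 had enough counts to be tested. The 2 others were Mrps23, with no count in any library, and Mrpl53, with 0 to 10 counts. Mrpl53 shared 695 exonic bases with Gm42688 on the same strand.

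RNA was sequenced from immortalized murine brown preadipocytes given vehicle or FGF6, a paracrine fibroblast growth factor, for 4, 8, or 24 h. There were 3 libraries in each of these 6 groups, 18 in all. The cells are 1 line, made with SV40 T antigen from stromal vascular cells of murine brown fat, and they were not given an adipogenic cocktail in any group. The study asked how FGF6 changes gene expression in such precursors, and the comparison at each time answers this for the genes of mitochondrial translation. The labels do not say whether the 3 libraries of a group came from separate cultures, so p-values measure the spread between these libraries, which may be technical. In bulk RNA, a change in the number of cells that carry a transcript and a change in RNA per cell cannot be told apart.

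The labelled cell type was checked against marker genes. Mean levels over the 18 libraries were 2014 CPM (the usual counts per library size, with each library size scaled by its TMM factor) for Col1a1, 495 CPM for Pdgfrb, 208 CPM for Pdgfra, and 44.0 CPM for the brown preadipocyte factor Ebf2. Dlk1 had no count in any library. Adipoq and Plin1, markers of mature adipocytes, averaged 0.383 and 0.657 CPM, and the leukocyte markers Ptprc and Adgre1 had at most 2 counts. Other markers of these lists were present. With vehicle at 4 h, the 5 tested adipocyte markers, Fabp4 among them, summed to 102 to 107 CPM. The 2 tested leukocyte markers, Cd68 and Csf1r, summed to 14.2 to 15.2 CPM in the same libraries. In these libraries, 4 tested skeletal muscle markers summed to 14.52 to 16.15 CPM and 2 tested endothelial markers to 0.62 to 1.2 CPM. Total counts per library ranged from 24327816 to 33471980, of which 80988 to 117914 fell on mitochondrial ribosomal proteins. One library, vehicle 24 h replicate 3, stood apart: it held 251704 counts of the ribosomal RNA gene CT010467.1, against 1971 to 4682 in the other 17 libraries. Counts of the 24 h comparison are therefore also given without it.

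Mitochondria keep their own ribosome, which translates only the few hydrophobic respiratory chain proteins encoded by mitochondrial DNA. Its ribosomal RNAs come from the mitochondrial genome, but all of its proteins are encoded in the nucleus, made in the cytosol, and imported. Some of these proteins descend from those of the bacterial ribosome, and others were added during the evolution of mitochondria. In brown fat, whose heat production depends on a dense respiratory chain, mitochondrial translation is needed for mature thermogenic cells.

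The genes were spread over 17 chromosomes. Many of them start next to another gene on the opposite strand: in the GENCODE M21 annotation, 21 of the 76 tested members (27.6%) had a protein-coding neighbor on the opposite strand whose start lay at most 500 bases upstream, with an overlap of at most 100 bases, against 1268 of 12874 protein-coding genes tested (9.85%). Mrps11 and Mrpl46 form such a pair with each other, with starts 30 bases apart. Reads from overlapping exons can blur neighbors, since 33 members shared exonic bases with another gene and the strand setting of the counting is not given in the sources used here. Mrpl14, for example, shared 106 exonic bases with its neighbor Tmem63b, and Mrpl43 shared 507 bases with Twnk.

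Start regions were read from RefSeq (build GRCm38.p6) as windows of 250 bases before and 50 after each start, and 69 of the 78 members had one. Both strands were searched for the letters of factors known to act on nuclear genes of mitochondria. The 10-base palindrome of NRF1, centered on GCATGC, was in 4.35% of members' windows and in 2.07% of the windows of the 10219 genes tested that had one. The ETS letters CCGGAAGT, which the GABP complex can bind, were in 17.4% and 8.47%, and the YY1 letters, which hold ATGGCGG, were in 10.1% and 2.58%. The E-box CACGTG, which MYC can bind, was in 7.25% and 10.2%, and the estrogen-related receptor letters TNAAGGTCA were in 0% and 0.724%. Mrpl27 and Mrps27 held both the ETS and the YY1 letters, at separate places, and a match is a description of the letters, not of binding. The windows below, 5′ to 3′ on the gene's own strand with the match in capitals, are shown because they carry these letters in genes with different responses: Mrps30 and Mrpl39 were higher with FGF6 at all 3 times, Mrpl48 was lower at all 3, and Mrps11 was called at none.
Mrps30, chr13:118387203-118387502, minus strand, YY1 letters: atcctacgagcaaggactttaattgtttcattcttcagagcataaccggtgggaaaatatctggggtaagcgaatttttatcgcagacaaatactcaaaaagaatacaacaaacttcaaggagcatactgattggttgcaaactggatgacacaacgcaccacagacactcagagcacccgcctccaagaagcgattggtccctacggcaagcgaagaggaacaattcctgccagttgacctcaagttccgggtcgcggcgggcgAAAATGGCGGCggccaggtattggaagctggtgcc
Mrpl39, chr16:84735195-84735494, minus strand, NRF1 letters: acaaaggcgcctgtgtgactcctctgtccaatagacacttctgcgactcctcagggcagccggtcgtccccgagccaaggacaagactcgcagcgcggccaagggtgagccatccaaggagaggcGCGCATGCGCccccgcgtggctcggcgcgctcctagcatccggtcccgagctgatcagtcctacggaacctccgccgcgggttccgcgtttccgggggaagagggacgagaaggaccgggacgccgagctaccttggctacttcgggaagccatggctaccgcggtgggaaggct
Mrpl48, chr7:100583081-100583380, minus strand, ETS letters: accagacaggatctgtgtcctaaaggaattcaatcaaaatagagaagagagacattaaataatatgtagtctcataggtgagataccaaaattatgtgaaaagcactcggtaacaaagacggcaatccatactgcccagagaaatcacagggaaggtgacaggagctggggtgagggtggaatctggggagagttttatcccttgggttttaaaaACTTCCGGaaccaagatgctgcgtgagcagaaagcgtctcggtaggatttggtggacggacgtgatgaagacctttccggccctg
Mrps11, chr7:78782881-78783180, plus strand, YY1 letters: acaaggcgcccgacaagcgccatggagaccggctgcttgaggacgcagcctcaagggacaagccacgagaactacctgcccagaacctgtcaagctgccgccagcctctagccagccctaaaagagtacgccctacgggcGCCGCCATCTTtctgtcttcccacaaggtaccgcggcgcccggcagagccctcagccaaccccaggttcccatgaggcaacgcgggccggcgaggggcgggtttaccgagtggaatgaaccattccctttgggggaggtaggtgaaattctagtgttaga
The capitals begin 15 bases after the start in Mrps30, 125 bases before it in Mrpl39, 35 before it in Mrpl48, and 110 before it in Mrps11, and in the last 2 the letters are those of the opposite strand. Among the 15 members with a window that were lower at 1 or more times, 6 (40%) held the ETS letters, and among the 42 that were higher at 24 h, 7 (16.7%) did. These groups overlap: Mrpl33, which held the ETS letters, was lower at 4 h and higher at 24 h. Among the 20 members not called at 24 h, 3 (15%) held them, and these shares were not tested. The 3 members with the NRF1 palindrome, Mrpl9, Mrpl32, and Mrpl39, were all among those higher at 24 h. So were 42 of all 69 members with a window. Mrpl12 and Mrps10, with the largest rises at 24 h, and Mrpl14, with the largest fall, held none of the 5 motifs.

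In vehicle-treated cells at 4 h, the level per length, in CPM per kilobase of the principal transcript, was highest for Mrpl54 (138 CPM per kb), Mrpl52 (126), and Mrps6 (119). It was lowest for Mrpl48 (3.81 CPM per kb), Mrps36 (3.23), and Mrpl23 (1.89). Each of these genes has a processed pseudogene, and the treatment of multi-mapped reads is not known, so their levels are less certain. Without the length correction, the mean level over the 18 libraries ran from 1.23 CPM (Mrpl23) to 147 CPM (Mrps6), with a median of 42.3 CPM. Transcripts for proteins of the same particle thus differed widely in level. The principal transcripts of the members were short, with a median of 1302 bases against 2782 over all genes tested, while the median GC fraction was 0.496 against 0.497.

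With FGF6, the summed level of the 76 members, scaled by TMM, was higher at each time. The sum was 3202 CPM ± 58.8 (SD, n = 3) with vehicle and 3391 ± 33.7 with FGF6 at 4 h. At 8 h it was 3300 ± 30.0 and 3865 ± 23.1, and at 24 h it was 3464 ± 58.5 and 4122 ± 57.7. Large subunit transcripts summed to 2399 CPM ± 36.1 with vehicle and 2857 ± 42.0 with FGF6 at 24 h, and small subunit transcripts to 1062 ± 22.1 and 1261 ± 15.4. The FGF6 libraries lay above all vehicle libraries of the same time in the sums of both subunits. The order at 4 h depended on the scaling: over the total count alone, the sum was 3286 CPM ± 33.5 (SD, n = 3) with vehicle and 3245 ± 21.9 with FGF6, and at 24 h it was 3427 ± 115 and 4057 ± 54.2.

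**Figure D1:**
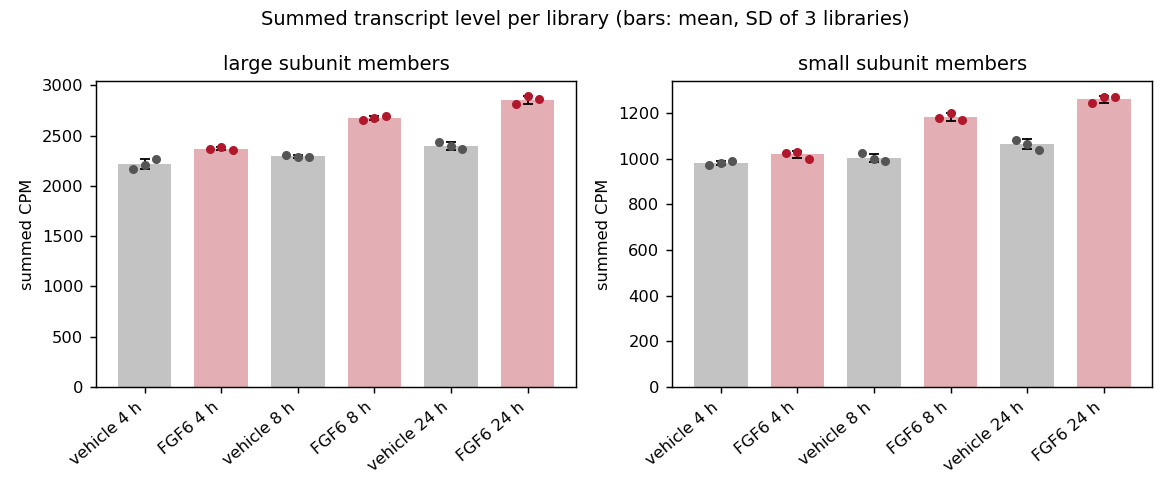
Summed CPM of the large subunit members (left) and small subunit members (right) in each library (points), with the group mean (bars) and SD of 3 libraries (error bars). The FGF6 libraries (red) lie above the vehicle libraries (gray) of the same time, by least at 4 h, where the order of the total turned with library sizes alone (3286 and 3245 CPM).

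At 4 h, the response was mixed. By the quasi-likelihood test of edgeR, with p-values adjusted after Benjamini and Hochberg over 15071 genes (called at an adjusted p under 0.05), 31 members were higher with FGF6 and 15 were lower, while 28.6% of all genes tested were called higher and 34.2% lower. The median log2 fold change of the members was 0.04, against −0.05 over all genes. These directions depended on the scaling: with library sizes alone, which moved the median of all genes by −0.10, 18 members were higher and 22 lower, and their median was −0.06. Relative to the median of all genes, which a scaling of libraries moves together with that of the members, the members' median was higher by 0.0878. All 3 FGF6 libraries lay above all 3 vehicle libraries for 32 members and below them for 18, against 30.1% and 36.1% of all genes.

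The members that rose most at 4 h were Mrps2 (log2 fold change 0.41, SE 0.044), Mrpl12 (0.40, SE 0.046), Mrps30 (0.40, SE 0.077), Mrpl43 (0.38), Mrpl50 (0.37), and Mrpl20 (0.36). Mrps2 is a bacterial-type protein of the small subunit, and Mrpl12 forms the flexible stalk on which translation factors act. Mrps30, in spite of its name, sits in the large subunit. Mrps2 stood at 70.9, 68.6, and 67.6 CPM with vehicle and at 88.8, 93.4, and 93.1 CPM with FGF6, so the groups did not overlap (adjusted p = 6.49e-11, edgeR). Those that fell most were Mrpl14 (−0.48, SE 0.052), Mrps28 (−0.38, SE 0.065), Mrpl4 (−0.37, SE 0.062), and Mrpl48 (−0.30, SE 0.072). Mrps28 stood at 29.8, 28.7, and 30.5 CPM with vehicle and at 24.6, 23.2, and 20.7 CPM with FGF6 (adjusted p = 2.77e-06). Its values at the later times, −0.13 at 8 h and −0.02 at 24 h, did not pass the test.

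**Figure D2:**
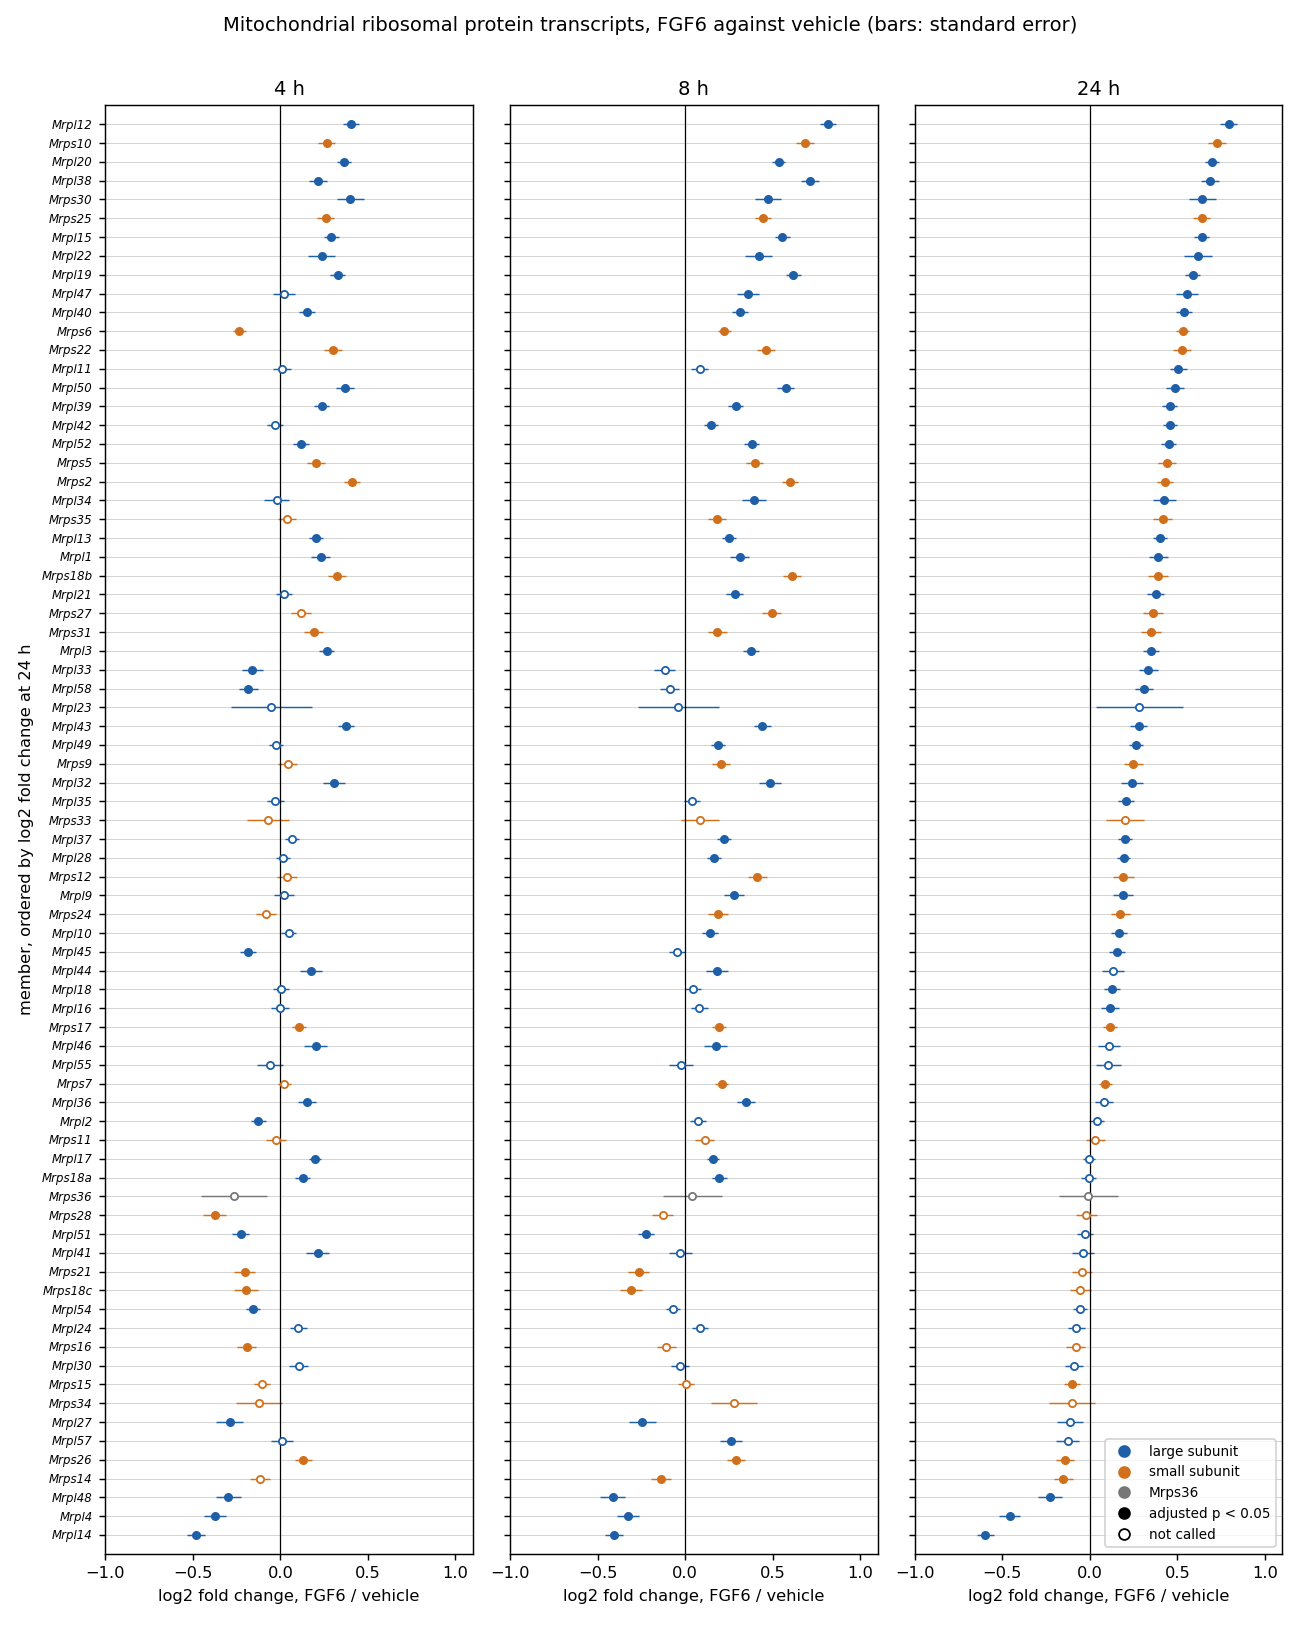
Log2 fold change of FGF6 against vehicle for each of the 76 tested members at 4, 8, and 24 h, ordered by the value at 24 h, with the standard error as bars; filled points have an adjusted p under 0.05. At 4 h 31 members were called higher and 15 lower (18 and 22 with library sizes alone), and at 24 h 47 and 6.

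At 8 h, 47 members were higher and 8 lower, against 32.4% and 38.4% of all genes tested (42 and 14 with library sizes alone). Their median log2 fold change was 0.19, and that of all genes was −0.05. The libraries did not overlap for 50 members that were higher and 11 that were lower (34.2% and 39.6% of all genes). Mrpl12 changed most, at 59.0, 55.1, and 55.2 CPM with vehicle and 98.4, 99, and 101 CPM with FGF6, a 1.76-fold rise (log2 0.82, SE 0.046, adjusted p = 1.77e-19, edgeR). Next came Mrpl38, a mitochondria-specific protein of the large subunit's central protuberance, at 50, 46.3, and 43.5 CPM with vehicle and 77.4, 77.4, and 74.5 CPM with FGF6 (1.64-fold). Every FGF6 library lay above every vehicle library for both genes. Mrps10 (log2 0.69), Mrpl19 (0.62), Mrps18b (0.61), and Mrps2 (0.60) completed the 6 largest increases. Counts of Mrpl19 are less certain, since it shared 1962 exonic bases with Gcfc2 on the opposite strand. The 8 members that fell were Mrpl48 (−0.42), Mrpl14 (−0.41), Mrpl4 (−0.33), Mrps18c (−0.31), and, by less, Mrps21, Mrpl27, Mrpl51, and Mrps14 (−0.26 to −0.14). The call of Mrps14 was lost under 5 of 10 alternatives and without 5 of the 6 libraries of that time.

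At 24 h, 47 members were again higher and 6 lower, against 35.9% and 37.9% of all genes tested. The median was 0.20 for the members and −0.02 for all genes. The libraries did not overlap for 49 members that were higher and 7 that were lower (36.7% and 38.1% of all genes). Mrpl12 stood at 57.1, 53.5, and 49.6 CPM with vehicle and at 85.9, 97.4, and 94.4 CPM with FGF6 (1.73-fold, log2 0.79, SE 0.047, adjusted p = 6.33e-19, edgeR). Mrps10, a bacterial-type protein of the small subunit, stood at 27.3, 28.4, and 29.6 CPM with vehicle and at 46.4, 46.7, and 47.9 CPM with FGF6 (1.65-fold). Mrpl20, a bacterial-type protein of the large subunit, stood at 69.0, 68.7, and 64.3 CPM and then at 110, 109, and 109 CPM (1.62-fold). None of these 3 genes overlapped between the groups. Mrpl38 (log2 0.69), Mrps30 (0.64), and Mrps25 (0.64), a mitochondria-specific protein of the small subunit, followed. Mrps25 shared 4590 exonic bases with Nr2c2 on the opposite strand. Mrps30 shared 623 with B430218F22Rik and Mrpl12 shared 200 with Gm16755, also on the opposite strand. Changes were moderate throughout: 9 members rose at least 1.5-fold at 24 h, and the lowest, Mrpl14, stood at 0.661 of its vehicle level.

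The 6 members called lower at 24 h were Mrpl14, Mrpl4, Mrpl48, Mrps14, Mrps26, and Mrps15, and the last 3 changed by −0.15, −0.14, and −0.10. Without vehicle 24 h replicate 3, 47 members were higher, 5 were lower, and the median was 0.25. The count of lower members fell to 2 without vehicle 24 h replicate 1 and to 3 without vehicle 24 h replicate 2, FGF6 24 h replicate 1 or 3, FGF6 8 h replicate 3, or any 1 of FGF6 4 h replicates 1, 2, and 3. The count of higher members stayed between 47 and 51 when each of the 18 libraries was left out in turn.

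**Figure D3:**
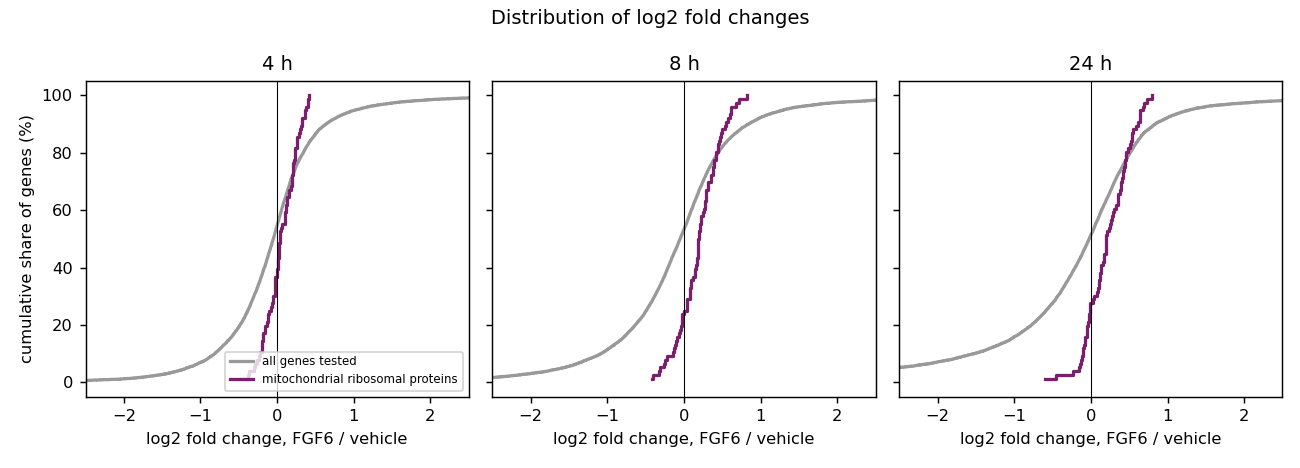
Cumulative share of genes (y axis, %) by log2 fold change of FGF6 against vehicle (x axis) for the 76 members (purple) and all 15071 genes tested (gray). The members' curve is narrower than that of all genes, and its median lies at 0.04, 0.19, and 0.20 at 4, 8, and 24 h (−0.06 at 4 h with library sizes alone).

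Members of both subunits and of both evolutionary classes were called higher. At 24 h, 32 of 50 tested large subunit members were higher and 3 lower (median 0.22), and 15 of 25 small subunit members were higher and 3 lower (median 0.19). The shares over all genes tested were 35.9% higher and 37.9% lower. Of the 30 large subunit proteins with a bacterial homolog, 20 were higher, and of the 20 tested that are specific to mitochondria, 12 were. In the small subunit, 9 of 16 with a bacterial homolog and 6 of 9 specific to mitochondria were higher. The medians of these 4 classes at 24 h were 0.22, 0.23, 0.10, and 0.36, and no test compared them. Of the 32 tested members that share exonic bases with another gene, 20 were higher at 24 h (62.5%), and of the 44 others, 27 (61.4%).

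Over the 3 times, 24 members were higher at all of them (31.6%, against 20.5% of all genes tested), and 15 at 8 and 24 h only (19.7% against 5.02%). In all, 50 members were higher at 1 or more times and never lower (65.8% against 37.2%), and 13 were lower and never higher (17.1% against 42.6%). The 5 called in both directions (6.58%) and the 8 never called (10.5%) were near the shares of all genes, 8.25% and 12%. These patterns rest on the 4 h calls too, which depended on the scaling. With library sizes alone, 18 members were higher and 22 lower at 4 h, so fewer could be higher at all 3 times. The patterns were not counted under that scaling. The difference between the FGF6 effects at 2 times was tested as an interaction. The effect at 8 h was higher than at 4 h for 29 members and lower for 1, against 15.6% and 15.2% of all genes tested. Mrpl38 (difference of log2 fold changes 0.50, SE 0.072, adjusted p = 5.57e-07, edgeR), Mrps6 (0.46), Mrps10 (0.42), and Mrpl12 (0.42) gained most. The 1 member whose effect fell was Mrpl41, from 0.21 to −0.03, and this count was 0 or 2 in 15 of the 18 fits that each left out 1 library. From 8 to 24 h, the effect was higher for 16 members and lower for 12 (21.1% and 15.8% of the members, against 22.7% and 22.5% of all genes). With library sizes alone the split was 20 and 3, with upper-quartile factors 18 and 7, and with DESeq2 13 and 13. Mrpl33 (0.45), Mrpl11 (0.42), and Mrpl58 (0.40) gained most, and Mrps26 (−0.44), Mrpl57 (−0.39), and Mrpl36 (−0.27) lost most.

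**Figure D4:**
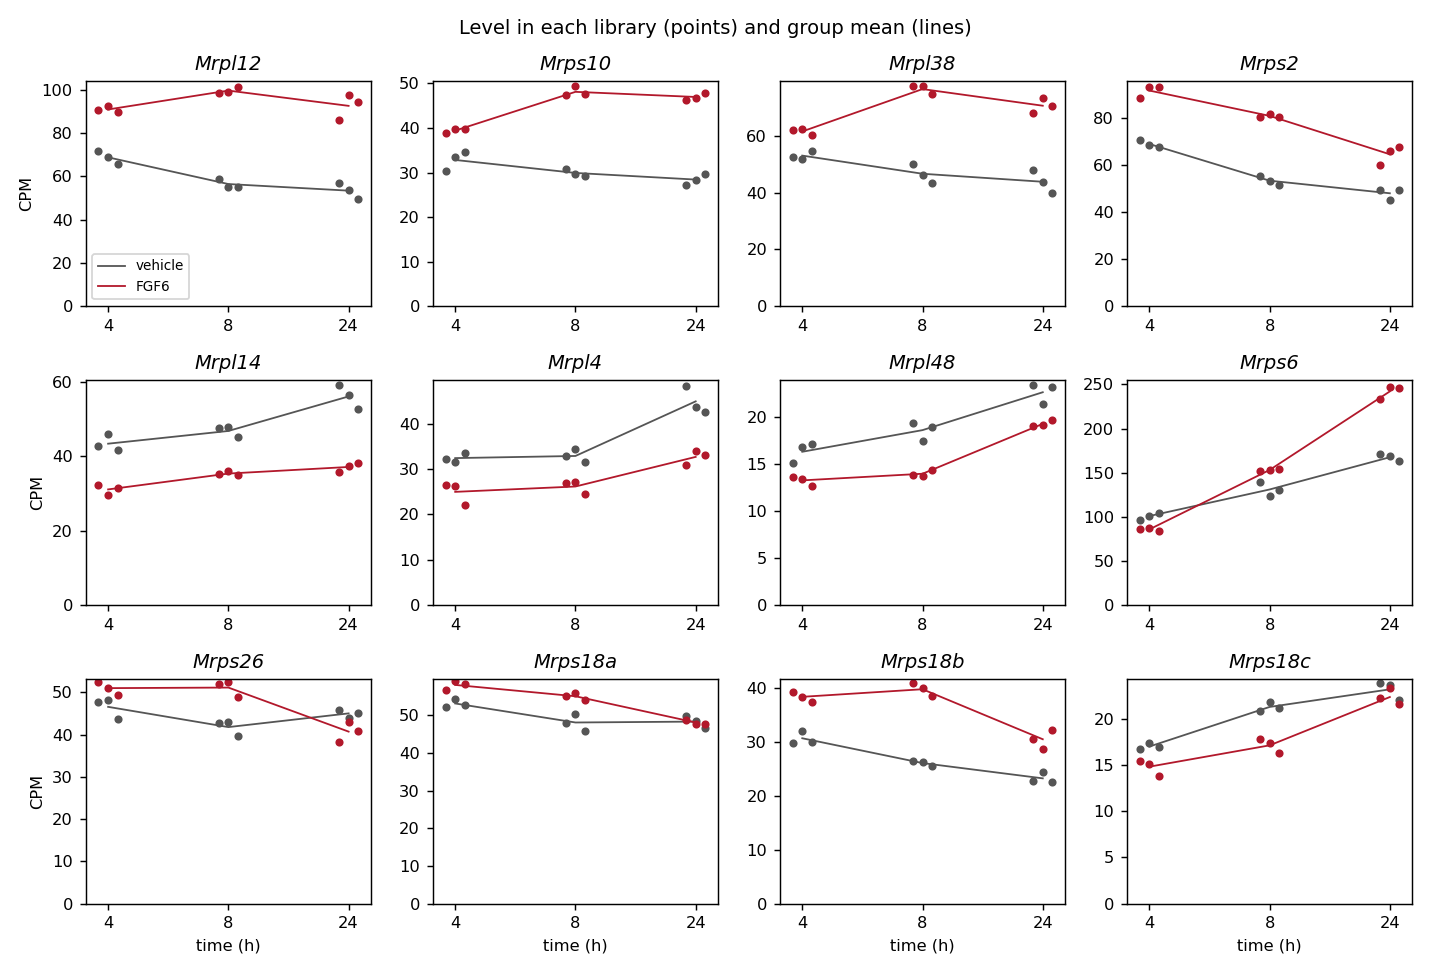
CPM in each library (points) and group means (lines) with vehicle (gray) and FGF6 (red) for 12 members, on axes that start at 0 and with times evenly spaced. Mrpl12, Mrps10, Mrpl38, and Mrps2 lie higher with FGF6 at all 3 times, Mrpl14, Mrpl4, and Mrpl48 lower, and Mrps6 crosses from lower at 4 h to higher at 8 and 24 h.

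Mrpl14, Mrpl4, and Mrpl48 were lower with FGF6 at all 3 times, against the course of most members. This course was rarer among the members (3.95%) than among all genes tested (22.9%). All are proteins of the large subunit: Mrpl14 lies on the face that meets the small subunit, Mrpl4 is a bacterial-type protein, and Mrpl48 belongs to the central protuberance. Mrpl14 (ENSMUSG00000023939, chr17:45686322-45698495, plus strand, GRCm38) stood at 59.1, 56.6, and 52.6 CPM with vehicle and at 35.8, 37.4, and 38.2 CPM with FGF6 at 24 h (log2 −0.60, SE 0.051, adjusted p = 5.32e-14, edgeR). Mrpl4 stood at 48.4, 43.8, and 42.7 CPM with vehicle and at 31.0, 34.0, and 33.1 CPM with FGF6 (log2 −0.46, SE 0.060). Mrpl48 stood at 23.4, 21.4, and 23.2 CPM and at 19.0, 19.2, and 19.7 CPM (log2 −0.23, SE 0.067). In none of the 3 genes did the groups overlap at any time. Their transcripts increased with time in vehicle-treated cells, with log2 changes from 8 to 24 h of 0.26, 0.45, and 0.28. A processed pseudogene of Mrpl48 had 23 to 61 counts per library, and Mrpl48 itself 312 to 708. Counts of Mrpl48 are less certain, since it shared 708 exonic bases with Rab6a on the opposite strand.

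Mrpl14 and its divergent neighbor Tmem63b, whose starts lay 63 bases apart, moved in opposite directions at 24 h (log2 −0.60 and 0.43). Over the divergent pairs, the neighbor of the 12 members that were higher at 24 h was higher in 7, lower in 3, and not called in 2, where 35.9% of all genes tested were higher and 37.9% lower. Mrpl18 and Tcp1, a subunit of the cytosolic chaperonin, rose together (0.13 and 0.93), as did Mrpl43 and Twnk, the mitochondrial DNA helicase (0.28 and 0.48). The genes of these pairs shared 141 and 507 exonic bases, on opposite strands, so their counts may not be separate. Mrps12 rose (0.19) while Sars2, the mitochondrial seryl-tRNA synthetase, fell (−0.19). Mrps11 and Mrpl46 were not called at 24 h (0.03 and 0.11), although Mrpl46 was higher at 4 h (0.20) and 8 h (0.18). The window printed above for Mrps11 overlaps that of Mrpl46 only in part. The window of Mrpl46 held none of the motifs searched. Mrps11 and Mrpl46 had 173 exonic bases in common.

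Mrps6, a bacterial-type protein of the small subunit and the most abundant member by CPM, was called in opposite directions. It stood at 96.4, 101, and 105 CPM with vehicle and at 86.4, 87.3, and 83.5 CPM with FGF6 at 4 h (log2 −0.23, SE 0.039, adjusted p = 1.21e-06, edgeR). At 8 h it was higher with FGF6, at 139, 124, and 130 CPM against 152, 153, and 154 CPM (log2 0.22, SE 0.037). At 24 h the values were 171, 169, and 163 CPM with vehicle and 233, 247, and 246 CPM with FGF6 (log2 0.53, SE 0.037, adjusted p = 9.42e-17). The groups were separate at every time, in the opposite order at 4 h. Its effect rose by 0.46 from 4 to 8 h (adjusted p = 6.31e-09) and by 0.31 from 8 to 24 h (adjusted p = 4.97e-06). Mrps6 shared 159 exonic bases on the same strand with Slc5a3, a myo-inositol transporter gene within its locus.

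Mrpl33, Mrpl45, and Mrpl58 were lower at 4 h and higher at 24 h. Mrpl45 anchors the ribosome at the inner membrane, and Mrpl58 is a peptidyl-tRNA hydrolase built into the large subunit. Mrpl33 changed by −0.16 (SE 0.060), −0.12 (not called), and 0.33 (SE 0.054) at the 3 times. It stood at 41.3, 39.2, and 40.6 CPM with vehicle and at 52.3, 51.1, and 49.1 CPM with FGF6 at 24 h, with no overlap, and it shared 261 exonic bases on the same strand with Gm43809. Mrpl58 changed by −0.18, −0.09, and 0.31, and Mrpl45 by −0.19, −0.05, and 0.15, the middle value not called in either. At 4 h, the call of Mrpl33 was lost with DESeq2, with only the time points compared, and without vehicle replicate 1 or any 1 of the FGF6 replicates (−0.14 to −0.09), and that of Mrpl58 without FGF6 replicate 1 or 2. Mrps26, a mitochondria-specific protein of the small subunit, took the other course, with 0.13 at 4 h, 0.29 at 8 h, and −0.14 at 24 h (SE 0.051, adjusted p = 0.0106, edgeR). At 24 h it stood at 45.9, 44.0, and 45.2 CPM with vehicle and 38.3, 43.0, and 40.9 CPM with FGF6. That last call was lost without 5 of the 6 libraries of that time in turn (all but FGF6 24 h replicate 2). Over all 6 of these fits, its log2 values ran from −0.18 to −0.06. The 4 h call of Mrps26 was lost with library sizes alone, with upper-quartile factors, and without vehicle 4 h replicate 3.

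The 3 paralogs of Mrps18 are interchangeable in name only, since Mrps18a is a protein of the large subunit and Mrps18b and Mrps18c sit in the small one. They also differed in course. Mrps18b was higher at all 3 times (0.32, 0.61, and 0.39), and at 8 h it stood at 26.5, 26.3, and 25.6 CPM with vehicle and at 40.9, 40.1, and 38.5 CPM with FGF6. Mrps18a was higher at 4 h (0.13) and 8 h (0.20), and its value at 24 h was −0.01 (SE 0.045, adjusted p = 0.876, edgeR). Its 4 h call was lost with library sizes alone (0.03) and with upper-quartile factors (0.07), and with the offset for GC content and length its 24 h value turned to 0.11 and was called. Mrps18c was lower at 4 h (−0.20) and 8 h (−0.31), where it stood at 20.8, 21.7, and 21.2 CPM with vehicle and at 17.7, 17.3, and 16.3 CPM with FGF6, and its value at 24 h was −0.05 (not called). Differences between the paralogs were not tested as such. Mrps18b shared 638 exonic bases with Gm16279 on the opposite strand, and Mrps18c shared 250 with Gm43511 on the same strand.

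The 8 members never called were Mrpl23, Mrpl24, Mrpl30, Mrpl55, Mrps11, Mrps33, Mrps34, and Mrps36. Their log2 fold changes ran from −0.26 to 0.28. Some would be called under other settings, such as Mrpl24 at 4 h (0.10) and Mrps34 at 8 h (0.28), each under 6 of 10 alternatives. Mrps34 shared 763 exonic bases with Nme3 on the same strand and 1309 with Mapk8ip3 on the opposite strand. Several had few counts: Mrpl23 had 18 to 44 per library, with a standard error of 0.25 at 24 h, and Mrps36 had 51 to 126, with one of 0.17. A change of the size seen in most other members was not detectable at these counts in these 2 genes. Both have processed pseudogenes, with at most 7 counts per library for that of Mrpl23 and at most 2 for those of Mrps36. The treatment of multi-mapped reads is not given in the sources used here, and a loss of reads to it was not tested. Mrps36, counted among the members by its name, is now placed in the alpha-ketoglutarate dehydrogenase complex. At 24 h it stood at 2.80, 3.8, and 2.61 CPM with vehicle and at 2.63, 3.00, and 3.63 CPM with FGF6, with full overlap.

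Members also changed with time in vehicle-treated cells. From 4 to 8 h, 22 were higher and 12 lower (21.4% and 21.8% of all genes tested), and from 8 to 24 h, 22 were higher and 9 lower (25.5% and 23.9%). The scaling decided the balance of the later step, since 14 were higher and 26 lower with library sizes alone, while the earlier step gave 27 and 8. Mrps2 (−0.37), Mrps34 (−0.35), and Mrpl12 (−0.28) fell from 4 to 8 h, and Mrps6 (0.38), Mrps18c (0.32), and Mrpl42 (0.31) rose. From 8 to 24 h, Mrps34 (0.49), Mrpl4 (0.45), and Mrpl54 (0.39) rose most and Mrps25 (−0.33) and Mrps5 (−0.22) fell most among members called. Counts of Mrps34 are less certain, since its exons overlap those of Nme3 on the same strand. For Mrps2 and Mrpl12, the FGF6 effect at 8 h was thus taken against a vehicle level that had fallen. Mrps2 itself had its highest level, 91.8 CPM ± 2.60 (SD, n = 3), with FGF6 at 4 h, and stood at 81.0 ± 0.838 at 8 h and 64.7 ± 3.99 at 24 h. The 12 lower from 4 to 8 h became 7 without vehicle 4 h replicate 2 or vehicle 8 h replicate 3, and the 9 lower from 8 to 24 h became 5 without vehicle 24 h replicate 2 or 3.

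Proteins of the mitochondrial ribosome that carry other symbols were read from a list of 5. At 24 h all 5 were higher (median 0.39): Ptcd3 (0.90, SE 0.039), Chchd1 (0.41), Gadd45gip1 (0.39), Aurkaip1 (0.24), and Dap3 (0.20). Ptcd3 stood at 70.1, 70.4, and 74.1 CPM with vehicle and at 142, 133, and 126 CPM with FGF6, with no overlap. At 4 h only Ptcd3 was higher, and Dap3 (−0.29) and Chchd1 (−0.12) were lower. For the background, 35.9% of all genes tested were higher at 24 h.

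For the mitochondrial ribosomal RNAs, which the particle is built around, the results rested on 1 library. At 24 h, mt-Rnr2 stood at 438, 455, and 1566 CPM with vehicle and at 621, 613, and 642 CPM with FGF6, the highest vehicle value being that of replicate 3, the library with the high ribosomal RNA count. mt-Rnr1 stood at 248, 259, and 1003 CPM and at 261, 264, and 277 CPM. Over all libraries, neither passed the test (log2 −0.39 and −0.91, adjusted p = 0.351 and 0.0577, edgeR). Without vehicle 24 h replicate 3, both were higher with FGF6, mt-Rnr2 by 0.53 (adjusted p = 5.36e-18) and mt-Rnr1 by 0.12 (adjusted p = 0.00587). At 4 and 8 h neither was called with all libraries, but without vehicle 24 h replicate 3 both were lower at 8 h, mt-Rnr1 with a log2 fold change of −0.19 (adjusted p = 1.17e-05) and mt-Rnr2 with −0.13 (adjusted p = 2.49e-04), and neither was called at 4 h.

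Other genes of mitochondrial translation moved in both directions, beside 35.9% higher and 37.9% lower of all genes tested at 24 h. Of 28 assembly factors, which modify the ribosomal RNA and fit the proteins to it, 15 were higher and 5 lower at 24 h (median 0.22). The RNA methyltransferase Trmt61b (1.19), the GTPases Noa1 (0.75) and Gtpbp10 (0.60), and the RNA helicase Ddx28 (0.56) rose most, and Rmnd1 (−0.86), Rpusd3 (−0.46), and Trmt2b (−0.37) fell most. Malsu1, which binds the protein of Mrpl14 during assembly, rose by 0.24 at 24 h, when Mrpl14 was lower. Of 15 translation factors, 7 were higher and 1 lower at 24 h (8 and 0 without vehicle 24 h replicate 3), led by the elongation factors Tsfm (0.80), Tufm (0.65), and Gfm1 (0.52). Tsfm stood at 39.1, 39.3, and 37.3 CPM with vehicle and at 67.4, 66.6, and 67.9 CPM with FGF6. Of 20 genes that charge mitochondrial tRNAs, 8 were higher and 4 lower at 24 h, and 5 were higher and 10 lower at 4 h, where 28.6% and 34.2% of all genes were. The share of this list called higher, 40% at 24 h and 25% at 4 h, was thus near that of all genes. Yars2 rose at all 3 times (0.52, 0.97, and 0.89), while Gatb fell at all 3 (−0.93, −1.16, and −0.62). One of the 4 lower at 24 h, Lars2, stood at 197, 208, and 2445 CPM with vehicle, the last in replicate 3. Its log2 fold change was −2.41 with that library and −0.15 without it. Of 14 genes that maintain or transcribe mitochondrial DNA, 8 were higher and 3 lower at 24 h, with the transcription factor Tfb2m (0.89), Ssbp1 (0.52), and Tfam (0.42) higher and Primpol (−0.69), Top1mt (−0.39), and Mterf2 (−0.32) lower.

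**Figure D5:**
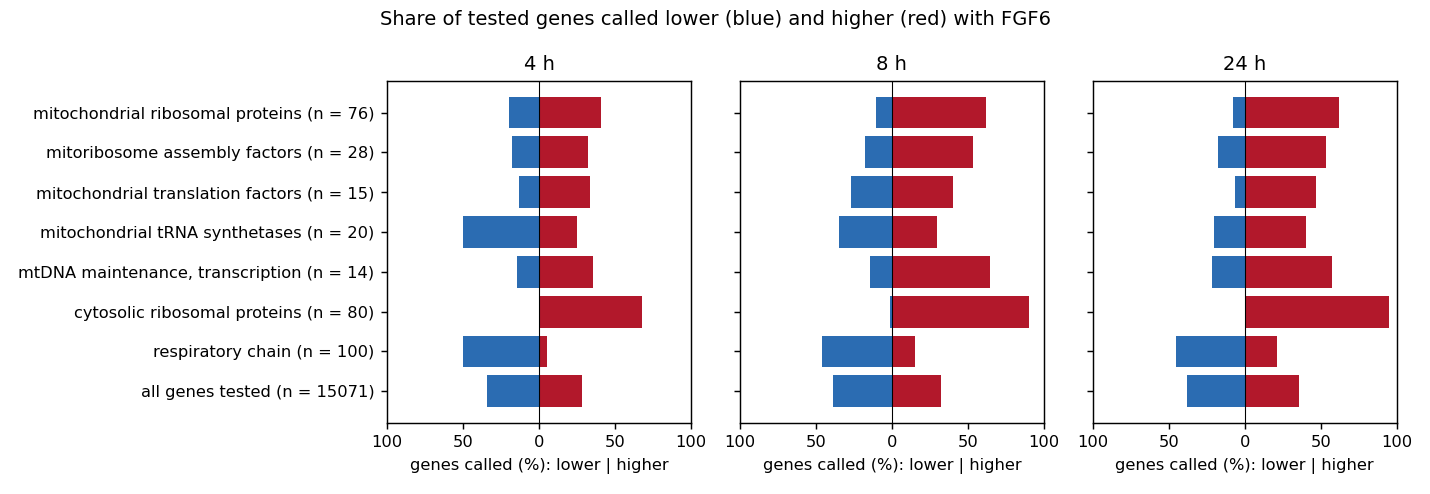
Share of tested genes called higher (red, to the right) and lower (blue, to the left) with FGF6 at an adjusted p under 0.05 at 4, 8, and 24 h, for the members, related gene lists, and all genes, with the number tested on the axis. At 24 h 61.8% of members, 95% of cytosolic ribosomal proteins, and 21% of genes with respiratory chain names (labelled respiratory chain) were called higher, against 35.9% of all genes tested. With library sizes alone 18 members were higher and 22 lower at 4 h.

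The cytosolic ribosomal proteins and the genes with respiratory chain names stood on either side of the members. The latter list was taken by symbol, so it can hold assembly factors with such names and leaves out subunits encoded by mitochondrial DNA. Of 80 tested cytosolic ribosomal protein genes, 54 were higher at 4 h and 76 at 24 h, with medians of 0.18 and 0.54 and none lower at either time. Of 100 tested genes with respiratory chain names (Nduf, Sdh, Uqcr, Cox, and Atp5), 5 were higher and 50 lower at 4 h, and 21 and 45 at 24 h, with medians of −0.10 and −0.07. The shares over all genes tested were 28.6% higher and 34.2% lower at 4 h, and 35.9% and 37.9% at 24 h. The medians of the members, 0.04 and 0.20, lay between those of the other lists at both times. No test compared these lists with each other.

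Among 9 nuclear regulators of mitochondrial genes, 5 were higher and 2 lower at 24 h, where 35.9% and 37.9% of all genes tested were. Myc, which drives ribosome production, stood at 54.3, 49.0, and 47.9 CPM with vehicle and at 171, 162, and 173 CPM with FGF6 at 24 h, and its log2 fold changes were 2.03, 2.31, and 1.74. Pprc1, a coactivator induced by serum, rose by 0.53, 0.72, and 0.48, and Gabpa, the DNA-binding subunit of GABP, by 0.21, 0.15, and 0.44. Nrf1 was not called at 4 h (0.10) and was higher at 8 h (0.16) and 24 h (0.26). Ppargc1a, the coactivator of thermogenic and mitochondrial genes in brown fat, was lower at all 3 times (−1.19, −1.11, and −1.65), at 9.14, 8.72, and 9.04 CPM with vehicle and 3.10, 2.57, and 2.86 CPM with FGF6 at 24 h. Esrra was higher at 4 h (0.71) and 8 h (0.86) and at 0.05 at 24 h, not called. Yy1 was higher at 4 h (0.12) and 8 h (0.22) and not called at 24 h (0.08).

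Markers of cell identity moved in the same libraries. At 24 h, 37.9% of all genes tested were lower with FGF6 and 35.9% higher. Of 8 tested stromal markers, 6 were lower and 2 higher, and their summed level ran from 4340 to 4663 CPM with vehicle and from 828 to 885 CPM with FGF6. Of 5 tested adipocyte markers, 4 were lower, and the sum ran from 156 to 178 CPM and from 64.1 to 70.8 CPM. The exception was Ucp1, with no count in the vehicle libraries and 0.620, 0.679, and 0.918 CPM with FGF6 at 24 h. Both tested leukocyte markers and all 4 muscle markers were lower at 24 h, with sums of at most 3.97 and 2.35 CPM with FGF6 (3 of the 4 muscle markers without vehicle 24 h replicate 3). With vehicle at 24 h, the leukocyte sum ran from 6.33 to 7.92 CPM and the muscle sum from 7.36 to 9.75 CPM. The 2 tested endothelial markers summed to 0.673 to 1.16 CPM with vehicle and 3.71 to 5.51 CPM with FGF6, Cdh5 being higher, and Pecam1 had at most 7 counts. The part of these marker changes in the members' changes was not tested.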

How the data were processed

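RNA-seq of 18 libraries (3 for each of 6 groups) was taken as raw counts per gene that the authors deposited. Per the study's methods, reads were aligned with STAR to GRCm38.p4 and counted with featureCounts of Subread. Versions, the annotation release, strand setting, and treatment of multi-mapped reads are not given in the sources used here. Gene positions, lengths, and overlaps came from GENCODE M21 (GRCm38), and 98.5% of gene identifiers were found in it.

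Counts were fitted with edgeR 4.0.16 (R 4.3.3) on all 18 libraries with 6 group means and no covariate, using TMM factors, filterByExpr (15071 genes kept), and the robust quasi-likelihood test. p-values were adjusted by Benjamini-Hochberg over all genes tested, and a gene was called at an adjusted p under 0.05. CPM were computed over TMM-scaled library sizes. Standard errors were the log2 fold change over the square root of the F statistic. Libraries held 24327816 to 33471980 counts, so 3 counts correspond to 0.0905 to 0.126 CPM. The biological coefficient of variation was 0.0458. On counts simulated for the 24 h comparison, 74.5% of 98 tested genes changed by 0.5 (log2) were recovered, and 97.1% of the 70 of them with at least 10 CPM. In that simulation, 99 other tested genes were changed by 1 and 14501 were not changed. In the data, 35.9% of genes tested were called higher and 37.9% lower at 24 h. Recovery under shifts of that breadth, or of changes below 0.5, was not simulated. No pair of libraries of a group was a duplicate (chi-square per degree of freedom 2.44 to 41.2). For single values, an exact permutation test of 3 against 3 cannot go below 0.1, so none was used.

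The members and lists were chosen with earlier results of these data known. Named were, at each time, the 6 largest increases and 4 largest decreases among called members with a mean of at least 1 CPM, members called in opposite directions, members never called, the Mrps18 paralogs, Mrps36, Mrpl58, and members left out by the filter. Companion genes were given as counts, with examples chosen after their values were seen. Alternatives were limma 3.58.1 with voom, DESeq2 1.42.0, 2 other scalings, other filters, only the time points compared, a replicate block, an adjusted p under 0.25 (the study's threshold), an offset for GC content and length, and leaving out each library. Replicate numbers did not pair the libraries.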

Additional observations from a re-analysis of the deposited data

Results flagged for a closer look

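The effect of FGF6 on a member was compared between times by an interaction term (quasi-likelihood test of edgeR, p-values adjusted over all genes tested). The effect differed between 4 and 8 h for 30 members (39.5%, against 30.9% of all genes tested) and between 8 and 24 h for 28 (36.8%, against 45.2%). Members called in opposite directions at 2 times were looked at singly, and values are differences of log2 fold changes. From 8 to 24 h, the effect on Mrps26 changed by −0.436 (adjusted p = 2.26e-06), while Mrpl33 gained 0.451 (adjusted p = 8.05e-06), Mrpl58 gained 0.395 (adjusted p = 2.06e-05), and Mrpl45 gained 0.198 (adjusted p = 0.0104). Mrps6 gained 0.459 from 4 to 8 h (adjusted p = 6.31e-09) and 0.307 from 8 to 24 h (adjusted p = 4.97e-06). No cause of these differences was tested.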

How the results depend on the processing

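The excess of members higher with FGF6 at 8 and 24 h kept its direction under every alternative tried, while that at 4 h did not. At 4 h, 18 members were higher and 22 lower with library sizes alone (median −0.0623), and 24 and 18 with upper-quartile factors (median −0.0175). At 8 h, 14, 13, and 13 members were lower with library sizes, upper-quartile factors, and a threshold of 0.25. Medians at 8 h were 0.226 with DESeq2, 0.125 with library sizes, 0.144 with upper-quartile factors, 0.222 with only the time points compared, and 0.21 with the GC and length offset. At 24 h, 12 members were lower at a threshold of 0.25, and the median was 0.246 with the offset. Leaving out each library gave medians of 0.0307 to 0.084 at 4 h, 0.187 to 0.234 at 8 h, and 0.2 to 0.255 at 24 h, and 2 to 6 members lower at 24 h. The 1 member with a lower effect at 8 than at 4 h became 0 with DESeq2, library sizes, upper-quartile factors, no filter, or only the time points compared, 2 at a threshold of 0.25, and 0 to 2 without 1 library. Lower effects at 24 against 8 h numbered 3 with library sizes, 7 with upper-quartile factors, and 7 with the offset. In vehicle, members lower from 4 to 8 h numbered 7 to 13 without 1 library. From 8 to 24 h, 14 (library sizes) or 35 (threshold of 0.25) were higher, and 26 (library sizes), 14 (upper-quartile factors), 21 (threshold of 0.25), 15 (offset), or 5 to 10 (without 1 library) were lower. Mrps18a at 24 h turned to 0.109 with the offset (adjusted p = 0.0239, edgeR). Replicate numbers were only shared (correlations of deviations −0.0275 to 0.0486 over 9 pairs). With them as a replicate block, 31 members were higher and 15 lower at 4 h, 48 and 9 at 8 h, and 47 and 6 at 24 h. Of 61 called values of named members, 51 kept their call under all alternatives and without each library of that time, and of 32 not called, 19 were called under 1 or more alternatives. The cause of these shifts was not tested.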
